A study of Mus musculus with 10 samples.

Results

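The DNA repair gene families were followed by RNA-seq from the mouse MII oocyte, the egg arrested at metaphase II, to the 4-cell embryo, with and without knockdown of Ago2. Ago2 encodes the Argonaute protein that cleaves RNAs matched by small RNAs, and the study asked what its loss does to maternal mRNAs. Genes were chosen by name alone: those starting with Fanc, or with Rad, Xrcc or Ercc and a digit, the Brca, Msh, Mlh and Pms genes, and Brip1, Atm, Atr, Parp1 and Trp53bp1. The rule found 59 of the 21437 genes in the table, of which 45 had at least 1 FPKM in at least 2 libraries and were tested. FPKM are fragments scaled to exon length and to the number of mapped fragments, so levels can be compared between genes. Between libraries they are relative to the library's own total, which was not the same in each. Sequencing covered 5 groups of 2 libraries each, 10 libraries in all: MII oocytes collected 16 h after hCG, wild type embryos of the 2-cell stage (40 h) and of the 4-cell stage (55 h), named control here, and Ago2 kd embryos of both stages. According to the methods, Ago2 kd embryos received siRNAs against Ago2 together with anti-AGO2 antibodies at the zygote stage, and a scrambled siRNA served as the negative control. The labels do not state whether the control libraries came from injected embryos. Females were 7 weeks old and were primed with 6.5 IU of PMSG and 5 IU of hCG. The labels give the strain ICR for each library, whereas the methods describe ICR oocytes and F1 embryos, so strain and stage cannot be told apart between oocyte and embryo. Ago2 mRNA was not analysed here.

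FPKM hold no read numbers. Sequencing depth is therefore unknown, and precision was judged from replicates only. Paired values below are those of replicate 1 and replicate 2. Nothing says that the replicates were separate collections, so the p-values measure the spread between these libraries, which may be technical. The FPKM of a library summed to between 178681 and 458874, and mitochondrial genes took between 2.02% and 13.0% of the sum. Gapdh, a glycolytic enzyme that cells use throughout, was at most 0.167 FPKM in the 10 libraries, so a value of 0 is described as listed at 0 and not as absence. Of the genes above 10 FPKM in the other replicate, 14.6% were below 0.1 FPKM in 4-cell Ago2 kd replicate 1, against 1.61% to 5.81% in the other 9 libraries. The label MII oocyte fitted most of its markers, with 8 of 10 oocyte genes at 1 FPKM or more in each oocyte library. Zp1 and Figla of this list stayed below 1 FPKM there. The 10 genes, such as Zp2 and Gdf9, summed to 7063 and 8650 FPKM in oocytes, to 1195 to 1742 in 2-cell embryos and to 6.12 to 41.3 in 4-cell embryos. Bmp15 was highest in 2-cell control replicate 1, at 787 FPKM against 605 and 449 FPKM in oocytes. The 7 genes of the 2-cell stage summed to 90.8 and 116 FPKM in MII oocytes and to 681 and 798 FPKM in 2-cell control embryos. Their sum was 355 and 535 FPKM in 2-cell Ago2 kd embryos and 2.47 to 34.4 FPKM in 4-cell embryos. Of the cumulus and granulosa cell genes on the marker list, only 2 had values, Foxl2 and Col4a1, which together stayed at or below 0.158 FPKM in each library. The others, such as Has2, Ptx3 and Tnfaip6, had none, so the presence of cumulus cells could not be judged from these markers. In bulk libraries, fewer cells and less RNA per cell cannot be told apart.

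DNA is repaired by separate pathways that share some proteins. Crosslinks between strands are opened by the Fanconi anaemia proteins and finished by homologous recombination, which copies the intact sister sequence with the help of BRCA1 and BRCA2. Double-strand ends can also be joined directly by the Ku and XRCC4 complexes, mispaired bases are removed by the MSH and MLH proteins, bulky lesions are cut out by the ERCC proteins, and ATM, ATR and the RAD9-RAD1-HUS1 clamp signal that DNA is damaged. The egg and the first embryonic cells depend for these functions on mRNA and protein stored in the oocyte until the embryonic genome is transcribed.

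The start regions of 5 genes that the results turn on are shown first. Promoters from RefSeq on GRCm38.p6, 250 bases before to 50 bases after the start of transcription, were found for 45 of the 59 genes, in 49 promoters. The motifs were searched on both strands: CCAAT, bound by NF-Y, GCGCATGC, bound by NRF1, the E2F motifs TTTCCCGC, TTTGGCGC, TTTCGCGC and TTTGCCGC, the CHR motif TTTGAA, and GGATTA, bound by OBOX factors. CCAAT or its reverse complement ATTGG was found in 57.1% of the repair promoters and in 37.4% of 32851 promoters. The E2F motifs were found in 12.2% against 2.27%, and the NRF1 motif in 10.2% against 2.71%. CHR was held by 8.16% against 17.9%, and GGATTA by 4.08% against 7.06%. Repair promoters had a median GC content of 58.7% against 52.7%, and these shares are a description without a test. Of the 6 genes that fell from oocyte to 2-cell embryo, 5 had a promoter in the table and 4 of these held CCAAT. Of the 5 genes that rose from the 2-cell to the 4-cell stage, 4 held it as well. The promoters of Brca1 and Brip1, which fell after the oocyte stage, of Fancf and Rad23b, which rose at the 4-cell stage, and of Fancm, which was listed above 0 in 4-cell Ago2 kd embryos only, are printed 5′ to 3′ on the strand of the gene, with the NF-Y and NRF1 motifs in capitals. Brca1 lies at chr11:101551906-101552205 (minus strand), Brip1 at chr11:86201144-86201443 (minus strand), Fancf at chr7:51862218-51862517 (minus strand), Rad23b at chr4:55349792-55350091 (plus strand) and Fancm at chr12:65075353-65075652 (plus strand).
Brca1: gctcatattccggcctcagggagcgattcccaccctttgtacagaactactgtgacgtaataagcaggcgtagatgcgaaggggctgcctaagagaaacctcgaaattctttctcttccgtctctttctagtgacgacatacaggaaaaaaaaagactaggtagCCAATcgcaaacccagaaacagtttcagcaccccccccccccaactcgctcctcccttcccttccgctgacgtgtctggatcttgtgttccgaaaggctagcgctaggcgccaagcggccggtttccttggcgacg
Brip1: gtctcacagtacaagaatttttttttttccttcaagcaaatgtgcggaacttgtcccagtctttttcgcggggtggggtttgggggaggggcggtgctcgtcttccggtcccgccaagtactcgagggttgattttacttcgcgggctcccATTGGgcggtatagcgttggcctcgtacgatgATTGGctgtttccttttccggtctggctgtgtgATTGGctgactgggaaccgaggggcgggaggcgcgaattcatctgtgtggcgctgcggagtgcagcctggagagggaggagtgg
Fancf: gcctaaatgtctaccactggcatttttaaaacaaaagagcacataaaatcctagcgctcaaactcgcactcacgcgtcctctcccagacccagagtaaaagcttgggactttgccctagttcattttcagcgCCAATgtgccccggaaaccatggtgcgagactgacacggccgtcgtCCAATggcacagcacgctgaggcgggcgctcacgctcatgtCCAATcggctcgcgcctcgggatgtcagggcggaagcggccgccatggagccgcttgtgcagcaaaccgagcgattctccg
Rad23b: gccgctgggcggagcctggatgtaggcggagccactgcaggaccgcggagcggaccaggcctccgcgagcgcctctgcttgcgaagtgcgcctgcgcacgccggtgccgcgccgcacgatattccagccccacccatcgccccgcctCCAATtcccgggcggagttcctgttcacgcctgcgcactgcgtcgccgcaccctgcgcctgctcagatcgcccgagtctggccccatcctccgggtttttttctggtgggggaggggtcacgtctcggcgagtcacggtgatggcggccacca
Fancm: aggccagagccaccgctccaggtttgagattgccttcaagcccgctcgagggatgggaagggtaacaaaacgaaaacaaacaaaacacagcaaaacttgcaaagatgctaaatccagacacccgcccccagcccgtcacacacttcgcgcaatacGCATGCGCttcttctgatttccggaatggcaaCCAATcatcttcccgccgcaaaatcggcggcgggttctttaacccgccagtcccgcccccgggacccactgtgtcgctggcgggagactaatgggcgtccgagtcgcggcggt
Each of the 5 held CCAAT or ATTGG between 31 and 118 bases before the start, once in Brca1, Rad23b and Fancm and at 3 places in Brip1 and Fancf. Fancm also held the NRF1 motif, 95 bases before the start. Genes with opposite courses shared the NF-Y letters, and a match is not a bound site.

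Most repair genes were expressed at a low level, and a few were abundant at each stage. The median over the 59 genes of the mean over the 10 libraries was 1.47 FPKM. Among the highest by this mean were Xrcc6bp1 with 33.2 FPKM, Rad21 with 22.7, Rad1 with 22.6 and Ercc6l with 19.3 FPKM. MII oocytes held 20 genes at 1 FPKM or more in both libraries, 2-cell embryos 12 in control and 12 in Ago2 kd, and 4-cell embryos 13 in control and 16 in Ago2 kd. In each single library the share of repair genes at 1 FPKM or more was above that of all genes. It ranged from 27.1% to 47.5% for the repair genes and from 22.8% to 27.2% for all genes. Only 6 genes reached 1 FPKM in all 10 libraries, and the ratio of the highest to the lowest library was 4.62 for Ercc6l, 11.0 for Ercc5, 12.2 for Rad1, 14.5 for Xrcc6bp1 and 24.8 for Brca2. Among the 42 genes with a mean of at least 1 FPKM in a control group, the highest control group was the oocyte for 22 (52.4%), the 2-cell embryo for 5 (11.9%) and the 4-cell embryo for 15 (35.7%). Among 8879 genes of the whole table treated alike, the shares were 38.7%, 18.1% and 43.2%. The 2 libraries of a group differed by a median of 0.64 log2 units over the repair genes tested in MII oocytes, against 0.23 over all genes tested, and by 0.22 to 0.54 in the embryonic groups, against 0.36 to 0.56.

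**Figure D1:**
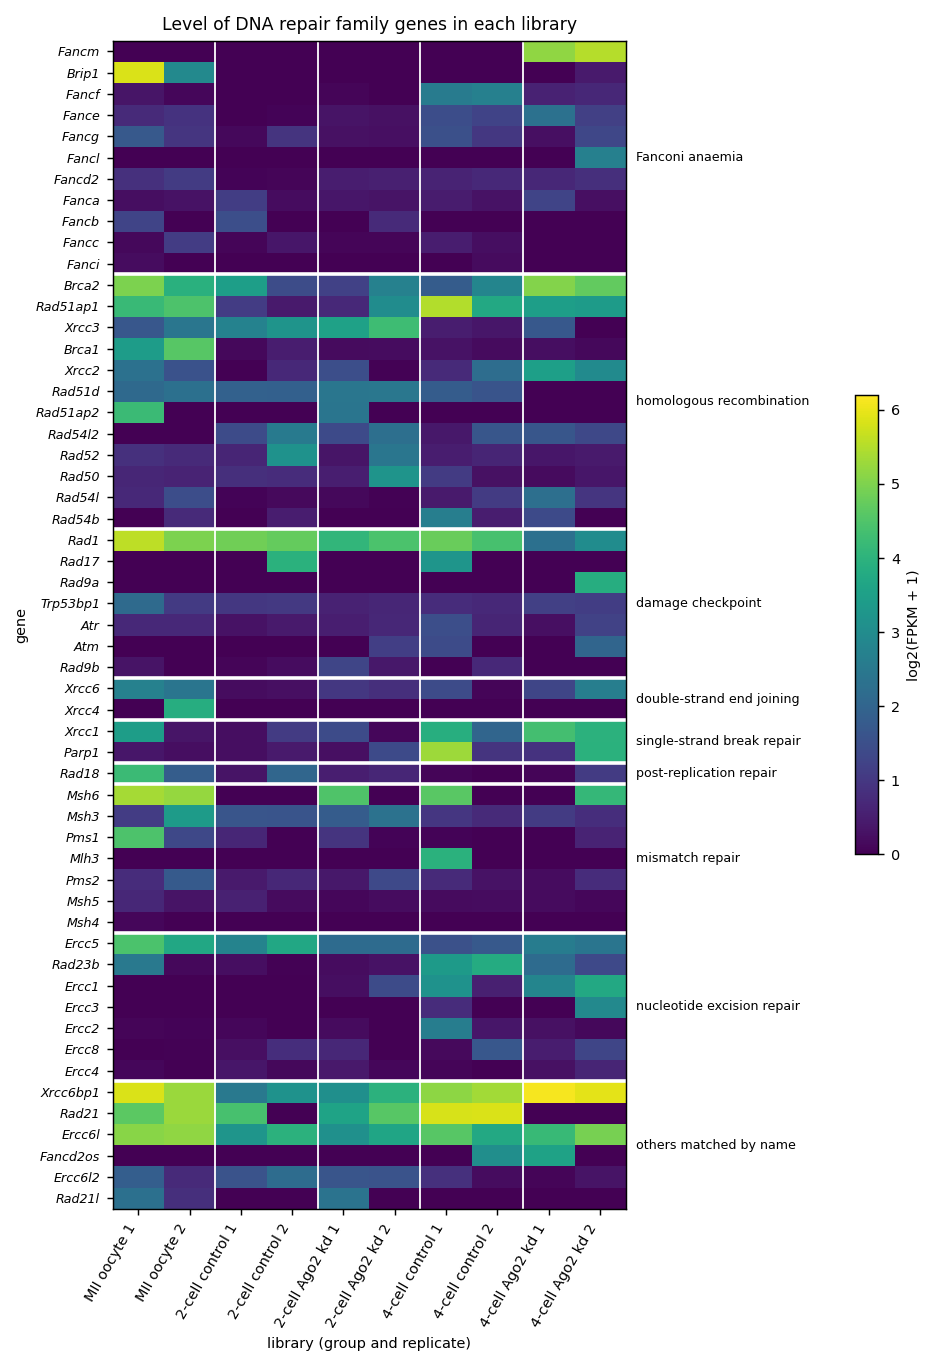
Heat map of log2(FPKM + 1) for 55 of the 59 repair genes (rows, by role and then by mean level) in the 10 libraries (columns, replicates 1 and 2 of each group). Brip1 and Brca1 are bright in MII oocytes only, and Fancm is bright in both 4-cell Ago2 kd libraries, at 35.0 and 44.3 FPKM.

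From the MII oocyte to the 2-cell control embryo, the share of repair genes called lower was near that of all genes tested. Of the 13 homologous recombination genes tested 2 were called lower, and of the 7 Fanconi anaemia genes tested 1. The 13 recombination genes split into 5 with a difference above 0 and 8 below. Brca1, Brip1, Rad51ap1, Xrcc6 and Xrcc6bp1 were among 6 genes called lower, with differences of -2.34 to -4.39 units of log2(FPKM + 1) for these 5, and no repair gene was called higher. The 6 lower genes were 13.3% of the 45 tested, and 14.2% of the 8726 genes tested in the table were lower. For rises the counts were 0 and 6.53%, with 1 repair gene, Rad54l2, at an unadjusted p below 0.05. The median difference over the 45 genes was -0.62, against -0.06 over all genes tested. These calls came from limma, with the variance moderated over genes and p-values adjusted by Benjamini-Hochberg over all genes tested, and a gene was called at an adjusted p below 0.05. Called refers to the fit over all 10 libraries unless another is named. Counts under other fits are given for the repair genes only, without the share of all genes. They describe how stable single calls were and are not results about the repair genes as a set. Of the 45 genes tested, 5 reached 1 FPKM in libraries of a single group, Brca1, Brip1 and Pms1 in oocytes, Fancf in 4-cell controls and Fancm in 4-cell Ago2 kd embryos. They passed the filter only through the group where they were high and had to differ from the others, so their p-values are descriptions and the counts that hold them support nothing further. They are 2 of the 6 genes here. Scaling each library to a common median moved the median of all genes in this step to 0.05 and that of the repair genes to -0.17, with 1 repair gene higher (Rad54l2) and 5 lower. Without 2-cell control replicate 2, 3 genes remained lower, Brca1 and Xrcc6bp1 among them, and without either 4-cell control Rad54l2 was called higher.

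From the 2-cell to the 4-cell control embryo, 5 repair genes rose and 2 fell. Fancf, Fance, Rad23b, Rad51ap1 and Xrcc6bp1 were higher, by 1.33 to 3.84 log2 units, and Xrcc3 and Ercc5 were lower, with differences of -2.54 and -1.62. One of the 5, Fancf, is among the genes that passed the filter through a single group. Fance reached 1 FPKM in 4-cell libraries only, control and Ago2 kd, so it passed through the stage where it was high. The shares were 11.1% higher and 4.44% lower, against 21.1% and 17.4% of all genes tested. At an unadjusted p below 0.05 the counts were 6 and 3. The median difference was 0.39 for the repair genes and 0.24 for all genes tested, and after scaling to a common median these were 0.04 and 0.00, with 4 genes higher (Fance no longer called) and 3 lower (Ercc6l2 added). Without 2-cell control replicate 2, the genes called higher were 2, Fancf and Xrcc6bp1, and without 4-cell control replicate 1 they were 3, with Rad23b. The 2 genes called lower fell to 0 without 2-cell control replicate 2, 4-cell control replicate 1 or 4-cell control replicate 2, and to 1 without 2-cell control replicate 1 or either 4-cell Ago2 kd library.

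Over both steps, from the oocyte to the 4-cell control embryo, Fancf and Rad23b were higher, and Brca1, Brip1, Ercc5, Rad18, Pms1 and Xrcc6 were among 7 genes called lower. The 2 higher genes were 4.44% of those tested, against 22.0% of all genes, and the 7 lower genes were 15.6%, against 26.3%. Of the genes that passed through a single group, 1 is among the higher and 3 are among the lower. The median difference was -0.30 for the repair genes and 0 for all genes. Without 4-cell control replicate 2, 4 genes were called higher, Fancf, Ercc1, Parp1 and Rad54b, and 4 lower, Brca1, Brip1 and Ercc5 among them. Without MII oocyte replicate 1, 4 genes were lower, with Brca1, Brip1 and Msh3 among them. Rad23b was no longer called higher without MII oocyte replicate 2, either 2-cell control, either 2-cell Ago2 kd, either 4-cell control or either 4-cell Ago2 kd library. The comparisons of stages share libraries, the 2-cell controls among them, and are not independent of each other.

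**Figure D2:**
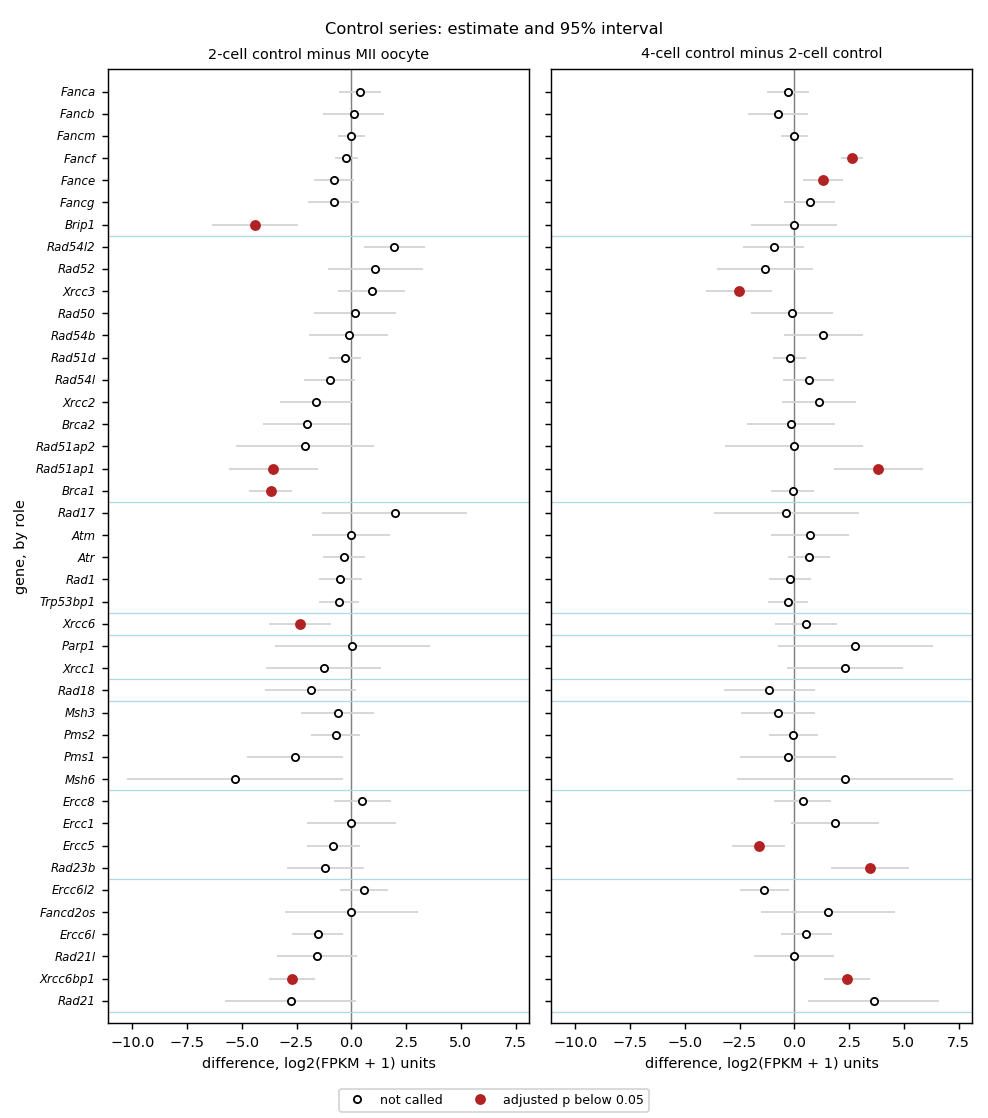
Difference in log2(FPKM + 1) between successive control stages for 42 of the 45 genes tested, grouped by role (blue lines), with 95% intervals of the limma fit. Filled points mark an adjusted p below 0.05: 5 genes shown lie left of 0 in the first panel, and 5 right and 2 left of 0 in the second.

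No repair gene stood out in Ago2 kd embryos of the 2-cell stage. No gene of the 45 was called higher or lower by limma, and none had an unadjusted p below 0.05 in either direction. In the whole table, 0.321% of the genes tested were called higher and 0.218% lower, and 2.91% and 2.89% had an unadjusted p below 0.05. The median difference was 0.11 for the repair genes and 0 for all genes. The 95% interval of the difference ran from -1.10 to 0.85 log2 units for Brca1, from -0.22 to 1.27 for Rad51d and from -0.47 to 0.56 for Fancf. Other genes had wider intervals. The standard errors were 0.41, 0.31 and 0.22 for these genes, against 0.86 for Rad51ap1 and 0.88 for Rad18. Brca1 and Fancf were below 1 FPKM in each 2-cell library, where the pseudocount of 1 leaves little room for a difference. The genes of the 2-cell stage given above were lower in sum in both Ago2 kd libraries than in both controls at this stage. The single genes did not all go this way. Tcstv3, Usp17la and Gm20767 were lower in both Ago2 kd libraries than in both controls, whereas Tcstv1 and Usp17lc were higher in both. Zfp352 and Zscan4d overlapped, and Tcstv3 held the same value, 134 FPKM, in both Ago2 kd libraries. The part of these genes in the values of the repair genes was not tested.

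At the 4-cell stage, Fancm was called higher in Ago2 kd embryos and Fancf and Rad51d were called lower. Fancm, the DNA translocase that recruits the Fanconi anaemia core complex, was listed at 0 in both control libraries, whereas the knockdown libraries had 35.0 and 44.3 FPKM. The 1 higher gene was 2.22% of the 45 tested, against 1.15% of all genes tested, and the 2 lower genes were 4.44%, against 2.76%, but Fancm and Fancf are among the genes that passed the filter through a single group. At an unadjusted p below 0.05, 3 repair genes were higher, Fancm, Brca2 and Xrcc2, and 5 were lower, Fancf, Rad51d, Rad1, Rad21 and Rad23b, against 7.23% and 8.07% of all genes. The median difference was 0.08 for the repair genes and 0 for all genes. The knockdown effect itself differed between the stages for Fancm, in the higher direction, and for Fancf, in the lower direction, by the interaction term of the fit. These are 2.22% of the genes tested in each direction, against 0.63% of all genes higher and 1.62% lower. After scaling to a common median or quantile normalization the counts at the 4-cell stage were 1 higher and 1 lower, since Rad51d lost its call. When only the groups compared entered the fit, the counts were 0 and 0. The smallest two-sided p of an exact permutation of 2 against 2 libraries is 0.333, so the calls rest on the spread of all 10 libraries in the fit, with 5 residual degrees of freedom and a median of 1.9 more from the other genes. The library with many values near 0, 4-cell Ago2 kd replicate 1, belongs to this comparison, and the count without it was 1 higher and 1 lower. Leaving out either oocyte library or either 4-cell control also gave 1 lower gene, Fancf. The 4-cell Ago2 kd libraries also had 11.1% and 13.0% of their FPKM in mitochondrial genes, against 10.8% and 5.22% in the controls, and 41.3 and 24.0 FPKM in oocyte genes, against 10.9 and 6.12 FPKM, and the part of either in these calls was not tested.

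**Figure D3:**
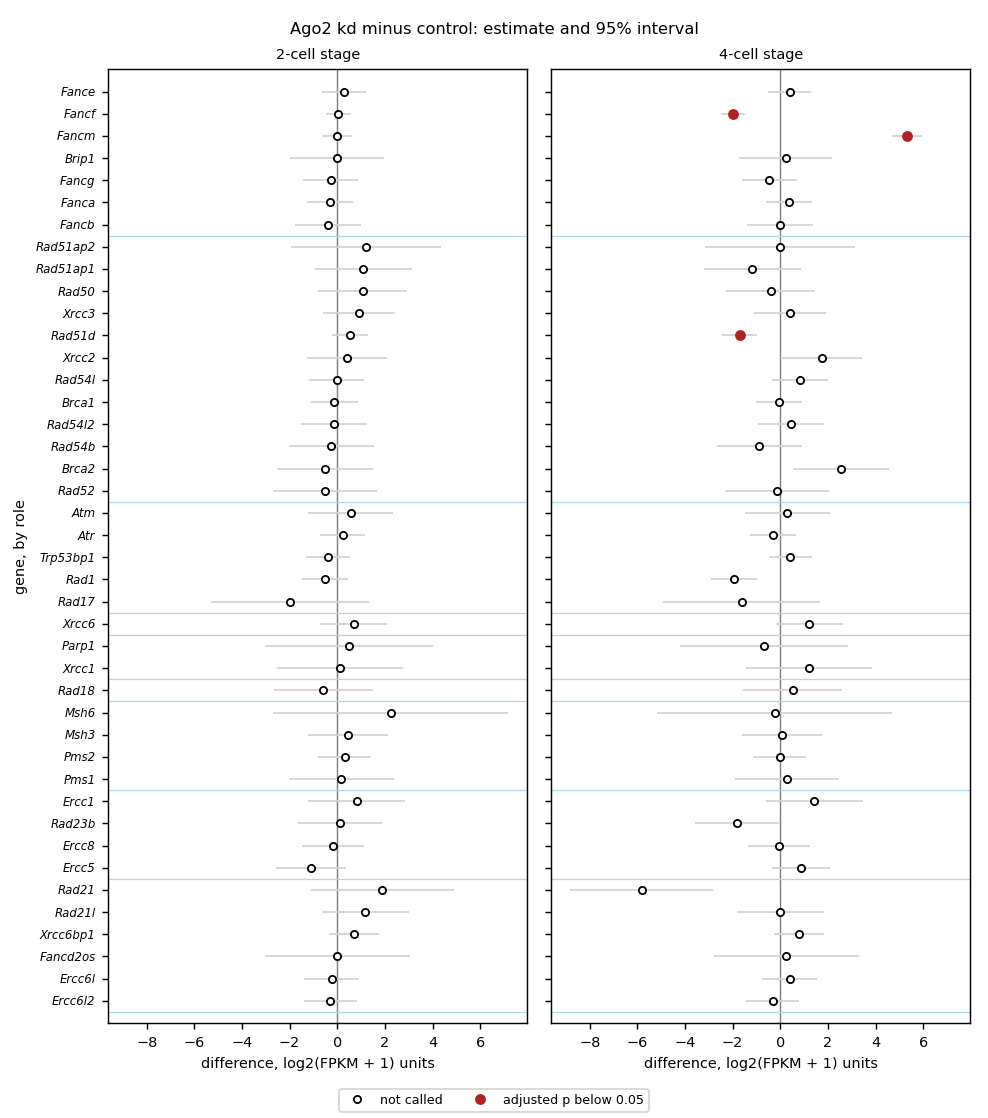
Difference in log2(FPKM + 1) between Ago2 kd and control embryos of either stage for 42 of the 45 genes tested, grouped by role, with 95% intervals of the limma fit. No point is filled in the 2-cell panel, and in the 4-cell panel Fancm on the right and Fancf and Rad51d on the left are filled, which marks an adjusted p below 0.05.

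Of the 11 Fanconi anaemia genes, Brip1 fell after the oocyte stage, Fancf and Fance rose at the 4-cell stage, and Fancm and Fancf differed in 4-cell Ago2 kd embryos. The other 7 were low: Fanca, Fancb, Fancc, Fancd2, Fancg and Fanci did not exceed 2.33 FPKM in any library, and Fancl, the ubiquitin ligase of the core complex, was listed at 0 in 9 libraries and at 5.55 FPKM in 4-cell Ago2 kd replicate 2. Fancc, Fancd2, Fanci and Fancl did not pass the filter.

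Brip1 encodes the helicase that binds BRCA1 and is also known as FANCJ. It was at 56.7 and 6.60 FPKM in MII oocytes, was listed at 0 in each 2-cell library, control and Ago2 kd, and in both 4-cell controls, and was at 0 and 0.366 in 4-cell Ago2 kd embryos. Both oocyte libraries lay above the other 8, although the first was far above the second. Brip1 passed the filter through the oocytes alone, and the adjusted p of 0.011 to the 2-cell and 0.00454 to the 4-cell stage only describes that. Without a filter these were 0.029 and 0.0131. No fold is given against groups listed at 0, and in the fit with only the groups compared the adjusted p was 0.114 and 0.0678. Without 2-cell control replicate 1 or 2, the p to the 2-cell stage was 0.0516 and 0.059. Between Ago2 kd and control there was a difference of 0.23 log2 units (95% interval -1.74 to 2.19) at the 4-cell stage.

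Fancf, a scaffold of the core complex that consists of a single exon, is at chr7:51860577-51862267 on GRCm38. It was at 0.268 and 0.0724 FPKM in MII oocytes, at 0 and 0 in 2-cell control, at 0.0637 and 0 in 2-cell Ago2 kd, at 4.94 and 5.45 in 4-cell control and at 0.504 and 0.602 in 4-cell Ago2 kd embryos. The 4-cell controls stood above all other libraries, and the 4-cell Ago2 kd libraries lay between them and the rest. It rose from the 2-cell to the 4-cell control by 2.63 ± 0.22 (SE) log2 units, with an adjusted p of 0.00023, and the difference of Ago2 kd from control was -2.00 ± 0.22, with an adjusted p of 0.00342. The difference between the knockdown effects at both stages was -2.04 ± 0.30, with an adjusted p of 0.0204. Fancf reached 1 FPKM in the 4-cell controls alone and passed the filter through them, so these p-values are descriptions. Without a filter they were 0.00153 for the rise, 0.0213 for Ago2 kd and 0.0894 for the difference between effects. The lower level in Ago2 kd embryos had an adjusted p of 0.378 when only the groups compared were fitted. Exons of Gas2 lie on the opposite strand there, and Gas2 was at most 0.247 FPKM in any library. The strand setting of the libraries is not given in the sources used here, so reads from a gene and its antisense partner cannot be told apart.

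Fancm, at chr12:65075603-65132058, was listed at 0 in both MII oocyte libraries, in all 4 libraries of 2-cell embryos and in both 4-cell controls. In 4-cell Ago2 kd embryos it was at 35.0 and 44.3 FPKM, the second highest mean among the repair genes of this group after that of Xrcc6bp1. The groups did not overlap, and no other library held any signal. The adjusted p was 0.000226 for the difference at the 4-cell stage and 0.0021 for the difference between stages, and no fold is given against libraries listed at 0. Fancm passed the filter through these 2 libraries alone and the other groups have no spread, so the p-values restate that it was high there. Without a filter they were 0.00104 and 0.00693. With only the 4-cell groups in the fit the adjusted p was 0.185. Exons of the antisense genes Gm47869 and Gm47870 overlap those of Fancm in the annotation and were not used here.

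Fance, another core complex protein, was at 0.659 and 0.873 FPKM in MII oocytes, at 0 and 0.0408 in 2-cell control, at 0.248 and 0.213 in 2-cell Ago2 kd, at 1.78 and 1.36 in 4-cell control and at 3.99 and 1.27 in 4-cell Ago2 kd embryos. Its 4-cell libraries were above all others. The rise from the 2-cell to the 4-cell control was 1.33 ± 0.39 log2 units with an adjusted p of 0.0332. Fance passed the filter through the 4-cell stage alone, so this p is a description. Without a filter it was 0.0938, with median scaling 0.0722 and with quantile normalization 0.137. The rise also missed the threshold in 8 of 10 fits that left out a library.

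**Figure D4:**
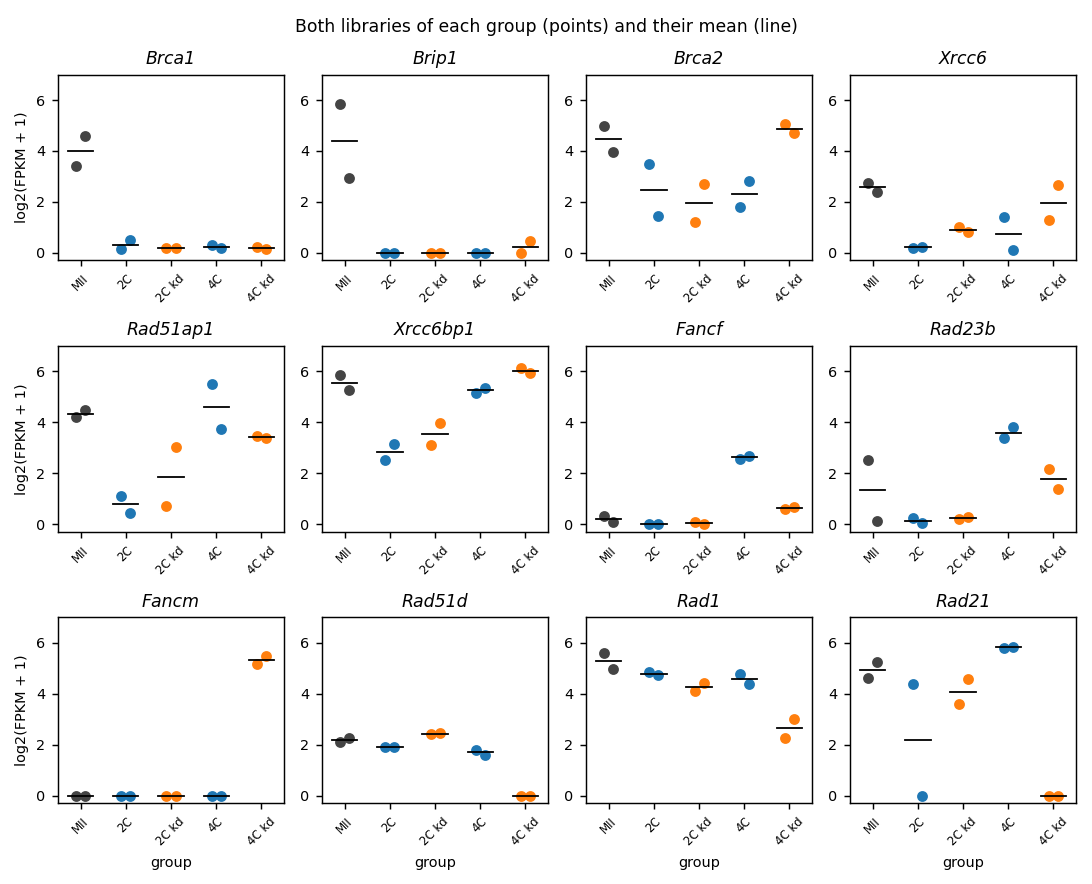
Levels of 12 repair genes as log2(FPKM + 1) in both libraries of each group, with the mean as a line: MII oocyte (grey), 2-cell (2C) and 4-cell (4C) control (blue) and Ago2 kd (orange). Brca1 and Brip1 drop after the oocyte, and Xrcc6bp1 is lowest in 2-cell embryos. Among these 12 genes, the 4-cell groups do not overlap for Fancf, Fancm, Rad51d, Rad1, Rad21, Brca2, Rad23b, Rad51ap1 and Xrcc6bp1. The 12 genes are a selection, and the share of all genes tested without such overlap is not given here. A full separation of 2 against 2 libraries has a two-sided p of 0.333 in an exact permutation, so it is a description only.

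Homologous recombination was represented by 13 genes, all of which passed the filter. Brca1 and Rad51ap1 fell after the oocyte stage, Rad51ap1 rose and Xrcc3 fell at the 4-cell stage, and Rad51d was lower in 4-cell Ago2 kd embryos. Brca1, the ubiquitin ligase that prepares broken ends for recombination, lies at chr11:101488764-101551955. It was at 9.69 and 23.2 FPKM in MII oocytes and between 0.103 and 0.414 FPKM in the other 8 libraries. The oocyte libraries did not overlap with any other. The difference from oocyte to 2-cell control was -3.69 ± 0.41 log2 units with an adjusted p of 0.00144, and to the 4-cell control it was -3.76 ± 0.41 with an adjusted p of 0.000412. Brca1 passed the filter through the oocytes alone. Over the alternatives the first difference lay between -5.55 and -3.10 log2 units and the second between -5.73 and -3.17. Without a filter the adjusted p was 0.00437 and 0.00144.

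Brca2, a mediator of strand exchange, was above 1 FPKM in each library. It was at 30.6 and 14.4 FPKM in MII oocytes, at 10.1 and 1.71 in 2-cell control, at 1.29 and 5.56 in 2-cell Ago2 kd, at 2.49 and 6.05 in 4-cell control and at 32.0 and 25.1 in 4-cell Ago2 kd embryos. Both 4-cell Ago2 kd libraries lay above both controls, in the range of the oocytes or higher. The difference in 4-cell embryos was 2.57 ± 0.85 log2 units, with an unadjusted p of 0.0199 and an adjusted p of 0.200, and was not called.

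Rad51ap1, which stimulates strand exchange, was at 17.3 and 21.3 FPKM in MII oocytes, 1.15 and 0.369 in 2-cell control, 0.639 and 7.13 in 2-cell Ago2 kd, 44.1 and 12.5 in 4-cell control and 10.2 and 9.59 in 4-cell Ago2 kd embryos. Its course had a low point at the 2-cell stage, where control libraries did not overlap with oocytes or 4-cell embryos. It fell by 3.56 ± 0.86 log2 units (adjusted p = 0.0278) and then rose by 3.84 ± 0.86 (adjusted p = 0.0127) in the limma fit. The fall was not called with median scaling (adjusted p = 0.0534), with quantile normalization (0.0678) or without a filter on low values (0.0595). The fall missed the threshold without either oocyte library or either 2-cell control library, with adjusted p between 0.0738 and 0.134, and the rise without 2-cell control replicate 2 or 4-cell control replicate 1, with 0.0652 and 0.0688.

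Rad51d, a recombination mediator, was even up to the 4-cell control and listed at 0 in 4-cell Ago2 kd embryos. Its levels were 3.34 and 3.87 FPKM in MII oocytes, 2.79 and 2.75 in 2-cell control, 4.41 and 4.46 in 2-cell Ago2 kd, 2.48 and 2.05 in 4-cell control and 0 and 0 in 4-cell Ago2 kd embryos. The 4-cell Ago2 kd libraries were the only ones of the 10 below 2 FPKM. The adjusted p at the 4-cell stage was 0.0327. The call was lost with median scaling (0.0526), quantile normalization (0.0758), the replicate block (0.0708) and only the groups compared (0.185). It was lost without either oocyte library, either 2-cell control, either 4-cell control or 4-cell Ago2 kd replicate 1, with adjusted p between 0.0528 and 0.0775. The difference between stages was not called (adjusted p = 0.0599).

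Xrcc3, another recombination mediator, was at 2.19 and 4.41 FPKM in MII oocytes, 5.73 and 8.24 in 2-cell control, 10.7 and 18.2 in 2-cell Ago2 kd, 0.417 and 0.302 in 4-cell control and 2.24 and 0 in 4-cell Ago2 kd embryos. The 2-cell libraries were the highest and did not overlap with those of the 4-cell stage. From the 2-cell to the 4-cell control it fell by 2.54 ± 0.64 log2 units with an adjusted p of 0.0195, and leaving out any of the 4 libraries compared gave adjusted p between 0.0566 and 0.0878. Exons of Klc1 on the opposite strand overlap Xrcc3, and Klc1 was at 0.421 to 7.50 FPKM. Xrcc2, a further mediator, was at 0.673 and 3.67 FPKM in 4-cell control and at 10.3 and 6.78 in 4-cell Ago2 kd embryos, a difference of 1.75 ± 0.71 with an unadjusted p of 0.043 and an adjusted p of 0.306.

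Rad54l2, a chromatin remodeller of the Rad54 group, was at 0.0144 and 0.0160 FPKM in MII oocytes and at 1.69 and 4.80 FPKM in 2-cell control embryos. It missed the threshold for a rise with an adjusted p of 0.0564. Rad51ap2 was at 17.8 and 0 FPKM in MII oocytes and 4.32 and 0 in 2-cell Ago2 kd embryos, and was listed at 0 in the other 6 libraries. Rad54b, a DNA translocase of recombination, was at 0 and 0.664 FPKM in MII oocytes, 0 and 0.417 in 2-cell control, 0 and 0 in 2-cell Ago2 kd, 5.31 and 0.399 in 4-cell control and 1.63 and 0 in 4-cell Ago2 kd embryos. The replicates of Rad51ap2 and Rad54b differed as much as the groups did, and neither was called over all libraries. Rad51ap2 was called lower in both control groups without MII oocyte replicate 2, and Rad54b higher at the 4-cell stage without 4-cell control replicate 2. Rad50, Rad52 and Rad54l ranged from 0.0323 to 8.32 FPKM and were not called in any comparison.

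Of the 7 damage checkpoint genes, 5 were tested and none was called, a number too small to set against the shares of all genes. Rad1, a subunit of the ring-shaped clamp that activates ATR, was the most abundant. It was at 47.1 and 30.7 FPKM in MII oocytes, 27.8 and 25.7 in 2-cell control, 16.1 and 20.7 in 2-cell Ago2 kd, 26.5 and 20.2 in 4-cell control and 3.85 and 7.15 in 4-cell Ago2 kd embryos. The 4-cell Ago2 kd libraries were the lowest of the 10 and did not overlap with any other. The difference from the 4-cell control was -1.94 ± 0.41 log2 units, with an unadjusted p of 0.0022 and an adjusted p of 0.0544, which just missed the threshold. Rad1 was called with 1 FPKM required in both libraries of a group and without a trend in the variance. Only settings that moved Rad1 across the threshold are named here, and they are not support for a call. Rad9a, its partner in the clamp, was listed at 0 in 9 libraries and at 13.5 FPKM in 4-cell Ago2 kd replicate 2. Rad17, the loader of the clamp, was at 14.6 FPKM in 2-cell control replicate 2 and 8.46 FPKM in 4-cell control replicate 1 and was listed at 0 in the other 8. For Rad9a and Rad17 a single library carried the value of its group. The kinases Atm and Atr and the chromatin reader Trp53bp1 ranged from 0 to 3.39 FPKM, and Rad9b, which was not tested, reached 1.44 FPKM.

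In end joining, Xrcc6, which encodes Ku70, fell after the oocyte stage. It was at 5.66 and 4.28 FPKM in MII oocytes, 0.153 and 0.185 in 2-cell control, 0.999 and 0.773 in 2-cell Ago2 kd, 1.68 and 0.0656 in 4-cell control and 1.45 and 5.31 in 4-cell Ago2 kd embryos. Oocyte and control embryo libraries did not overlap, whereas 4-cell Ago2 kd replicate 2 lay within the range of the oocytes. The difference was -2.34 ± 0.59 log2 units from oocyte to 2-cell control (adjusted p = 0.0321) and -1.81 ± 0.59 to the 4-cell control (adjusted p = 0.0401). Leaving out any of the oocyte or 2-cell control libraries raised the first p to between 0.105 and 0.148, and leaving out either 2-cell Ago2 kd library gave 0.0506 and 0.0511. The second was between 0.0999 and 0.193 without either oocyte library or 4-cell control replicate 2, with a difference of -1.15 in the last case, and 0.0613 to 0.0633 without either library of the 2-cell control or Ago2 kd groups. The antisense partner Desi1 was at 14.0 FPKM in MII oocyte replicate 1, 12.4 FPKM in 4-cell control replicate 1 and 7.67 FPKM in 4-cell Ago2 kd replicate 2, and was listed at 0 in the other 7 libraries. Xrcc4, the partner of the ligase, was at 13.6 FPKM in MII oocyte replicate 2 and listed at 0 in the other 9, and was not tested.

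The single-strand break repair genes Parp1, which senses nicks, and Xrcc1, the scaffold of their repair, were highest at the 4-cell stage but varied between replicates. Parp1 was at 38.4 and 0.923 FPKM in 4-cell control and at 0.879 and 14.5 in 4-cell Ago2 kd embryos, and at most 1.63 FPKM before. Xrcc1 was at 13.7 and 3.08 FPKM in 4-cell control and 19.4 and 14.8 in 4-cell Ago2 kd embryos, with 9.99 FPKM in MII oocyte replicate 1. Neither was called, apart from Parp1 as higher at the 4-cell stage when 4-cell control replicate 2 was left out.

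Rad18, the ubiquitin ligase that directs post-replication repair, was at 17.8 and 2.57 FPKM in MII oocytes, 0.250 and 3.12 in 2-cell control, 0.445 and 0.583 in 2-cell Ago2 kd, 0.0636 and 0 in 4-cell control and 0.0555 and 1.10 in 4-cell Ago2 kd embryos. Oocytes and 4-cell embryos did not overlap, while one 2-cell control library lay within the range of the oocytes. The 4-cell control differed from oocytes by -2.99 ± 0.88 log2 units, with an adjusted p of 0.0271, and the call was lost without MII oocyte replicate 1, with a difference of -1.79 and 0.128, and without either 4-cell control library, with 0.0932 as the lower of the p-values.

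Mismatch repair comprised 9 genes, of which 6 were tested, and Pms1 was lower in 4-cell control embryos than in oocytes. Msh6, a subunit of a complex that recognises mispairs, was at 39.9 and 36.5 FPKM in MII oocytes and 0 and 0 FPKM in 2-cell control. In the other groups one library was listed at 0 and the other was not, with 21.4 and 0 FPKM in 2-cell Ago2 kd, 23.3 and 0 in 4-cell control and 0 and 16.4 in 4-cell Ago2 kd embryos. With this spread the difference between oocyte and 2-cell control had an unadjusted p of 0.0389 and an adjusted p of 0.128. Pms1 was at 21.0 and 1.55 FPKM in MII oocytes, 0.575 and 0.00289 in 2-cell control, 0.910 and 0.0490 in 2-cell Ago2 kd, 0.0444 and 0 in 4-cell control and 0 and 0.537 in 4-cell Ago2 kd embryos. Both oocyte libraries were above all embryos. The 4-cell control differed from oocytes by -2.87 ± 0.93 log2 units with an adjusted p of 0.0385, with 0.0911 without the filter that it passed through the oocytes alone. Only the fit without MII oocyte replicate 2 kept the call among the 10 that left out a library. The other 9 gave adjusted p from 0.0572 to 0.126, and without MII oocyte replicate 1 the difference was -1.32. Mlh3, an endonuclease of meiotic crossovers, was at 14.7 FPKM in 4-cell control replicate 1 and listed at 0 in the other 9 libraries. Msh3 and Pms2 ranged up to 9.54 FPKM, with no call over all libraries and one for Msh3 without MII oocyte replicate 1, given above, and the meiotic genes Msh4 and Msh5 stayed at or below 0.607 FPKM.

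Of the 8 nucleotide excision repair genes, 4 were tested, Rad23b rose and Ercc5 fell in control embryos. Rad23b, the partner of the damage sensor XPC, lies at chr4:55350043-55392237. It was at 4.72 and 0.0999 FPKM in MII oocytes, 0.182 and 0.0242 in 2-cell control, 0.152 and 0.227 in 2-cell Ago2 kd, 9.37 and 13.0 in 4-cell control and 3.47 and 1.59 in 4-cell Ago2 kd embryos. The 4-cell controls were the highest, and the Ago2 kd libraries lay below both of them and above each 2-cell library. It rose by 3.45 ± 0.74 log2 units from the 2-cell to the 4-cell control (adjusted p = 0.0109), with 0.0532 without 2-cell control replicate 2 and 0.0570 without 4-cell control replicate 2, and by 2.26 ± 0.74 from the oocyte (adjusted p = 0.0413). The rise from the oocyte was 1.07 with an adjusted p of 0.150 without MII oocyte replicate 2. In 4-cell Ago2 kd it differed from control by -1.82 ± 0.74, with an unadjusted p of 0.0449 and an adjusted p of 0.314.

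Ercc5, the XPG endonuclease, was at 20.7 and 12.2 FPKM in MII oocytes, 5.89 and 12.2 in 2-cell control, 1.88 and 2.35 in 4-cell control and 5.10 and 4.32 in 4-cell Ago2 kd embryos. In 2-cell Ago2 kd it was listed at 3.47 FPKM in both libraries with all digits the same. It is among 193 rows with an identical value in these libraries, all within a block of 196 rows at the end of the table, and the repeated value was counted once in the fit. The 4-cell controls were the lowest. Ercc5 fell by 2.45 ± 0.49 log2 units from the oocyte to the 4-cell control (adjusted p = 0.00844) and fell by 1.62 ± 0.49 from the 2-cell control (adjusted p = 0.0455). The first had an adjusted p of 0.0512 without MII oocyte replicate 1, and the second missed the threshold without either oocyte library, 2-cell control replicate 2, either 4-cell control or either 4-cell Ago2 kd library, with 0.0575 to 0.173.

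Ercc1, which forms a nuclease with XPF, was listed at 0 in oocytes and 2-cell control, was at 0.164 and 1.65 FPKM in 2-cell Ago2 kd, 7.94 and 0.462 in 4-cell control and 6.08 and 12.4 in 4-cell Ago2 kd embryos, and was not called. Ercc3, a helicase of TFIIH, was at 0.733 FPKM in 4-cell control replicate 1 and 6.62 FPKM in 4-cell Ago2 kd replicate 2 and listed at 0 in the other 8. Ercc2, Ercc4 and Ercc8 ranged from 0 to 5.17 FPKM. Ercc2, Ercc3 and Ercc4 were not tested.

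The names also took in 6 genes that were kept apart from the pathways above, most of them with a main role outside repair, and 3 of them were among the 5 most abundant. Xrcc6bp1, annotated as Atp23, a mitochondrial protease named for its binding to Ku70, was at 56.4 and 37.3 FPKM in MII oocytes, 4.72 and 7.96 in 2-cell control, 7.57 and 14.9 in 2-cell Ago2 kd, 34.7 and 39.7 in 4-cell control and 68.5 and 60.3 in 4-cell Ago2 kd embryos. The 2-cell libraries were below all others. It fell by 2.71 ± 0.44 log2 units (adjusted p = 0.00606) and rose by 2.41 ± 0.44 (adjusted p = 0.00571). Over the alternatives the differences lay between -3.04 and -1.85 for the fall and between 1.96 and 2.74 for the rise. Both 4-cell Ago2 kd libraries lay above both controls, with a difference of 0.78 ± 0.44 that was not called (adjusted p = 0.491).

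Rad21, the cohesin subunit that holds sister chromatids together, lies at chr15:51962240-51991747. It was at 23.8 and 37.6 FPKM in MII oocytes, 19.9 and 0 in 2-cell control, 11.2 and 22.9 in 2-cell Ago2 kd, 55.2 and 56.3 in 4-cell control and 0 and 0 in 4-cell Ago2 kd embryos. The 4-cell groups stood at the opposite ends of the 10 libraries, and one 2-cell control library was also listed at 0. The unadjusted p at the 4-cell stage was 0.0025 and the adjusted p was 0.059, so Rad21 was not called. Leaving out either 2-cell control library removes the spread of 19.9 against 0 FPKM from the fit, so such fits are no support for a call. With a filter of 1 FPKM in both libraries of a group, Rad21 and Rad1 were called lower as well, and 4 genes were lower in 4-cell Ago2 kd.

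Ercc6l, a helicase of mitotic chromosome bridges, was at 33.3 and 35.2 FPKM in MII oocytes, 8.44 and 14.9 in 2-cell control, 7.62 and 11.5 in 2-cell Ago2 kd, 23.1 and 12.3 in 4-cell control and 17.1 and 29.5 in 4-cell Ago2 kd embryos. Oocytes were above 2-cell controls, a difference of -1.52 ± 0.49 with an unadjusted p of 0.0174 and an adjusted p of 0.0723. Rad21l, a cohesin subunit of meiosis, was at 3.86 and 0.774 FPKM in MII oocytes and 4.13 and 0 in 2-cell Ago2 kd and was listed at 0 in the other 6. Fancd2os was at 0 and 7.41 FPKM in 4-cell control and 11.0 and 0 in 4-cell Ago2 kd embryos and listed at 0 before. The replicates of both disagreed, and neither was called. Ercc6l2, which does have a known part in the repair of double-strand breaks, ranged from 0.0636 to 3.61 FPKM.

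A value of at least 5 FPKM in one replicate with less than 0.1 FPKM in the other occurred for 2 repair genes in MII oocytes, 2 in 2-cell control, 1 in 2-cell Ago2 kd, 4 in 4-cell control and 5 in 4-cell Ago2 kd embryos. Msh6, Rad17 and Fancd2os were among them in more than one group.

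Other DNA repair genes, a list of 104 genes outside the families of which 74 were tested, had shares of called genes near those of the whole table. From oocyte to 2-cell control 3 were higher and 12 lower, or 4.05% and 16.2% against 6.53% and 14.2% of all genes. From 2-cell to 4-cell control 18 were higher and 12 lower, or 24.3% and 16.2% against 21.1% and 17.4%. From oocyte to 4-cell control 17 were higher and 20 lower, or 23.0% and 27.0% against 22.0% and 26.3%. With Ago2 kd limma called 0 of them at the 2-cell stage, with 0 at an unadjusted p below 0.05. At the 4-cell stage 2 were lower, or 2.7% against 2.76% of all genes, and 0 higher. At an unadjusted p below 0.05, 8 were lower and 3 higher, or 10.8% and 4.05% against 8.07% and 7.23%. The 2 were Chek1, the kinase that ATR activates, and H2afx, the histone that is phosphorylated around breaks. H2afx was at 136 and 196 FPKM in 4-cell control and 9.09 and 18.5 in 4-cell Ago2 kd embryos, close to the 9.19 and 12.1 FPKM of 2-cell controls. The difference was -3.55 ± 0.46 log2 units with an adjusted p of 0.0073. Chek1 was at 10.3 and 8.81 FPKM in 4-cell control and 2.08 and 0.123 in 4-cell Ago2 kd embryos, with a difference of -2.50 ± 0.48 and an adjusted p of 0.0397. In both genes the 4-cell groups did not overlap.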

How the data were processed

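RNA-seq of total RNA covered MII oocytes and control and Ago2 kd embryos at the 2-cell and 4-cell stage. Per the labels and methods, the authors aligned reads to GRCm38 (mm10) with HISAT2 2.1.0 and computed FPKM with StringTie. The deposited table holds 1 FPKM value per gene name and library, and how several transcripts became 1 row is not given in the sources used here. Groups were taken from the sample titles. The test was limma 3.58.1 in R 4.3.3 on log2(FPKM + 1), unscaled: 1 mean per group over 10 libraries, a trend in the variance, the 8726 genes that reached 1 FPKM in 2 or more libraries, two-sided tests and Benjamini-Hochberg adjustment. Because a pseudocount of 1 was added, differences understate the change of low genes. The script was tested on simulated data. Positions came from GENCODE M21. Counts cover all members, of which 4 are not reported here. Members and lists were chosen with earlier results of these data known. Full values are given for genes called in any contrast, for the 10 with the highest mean, for Brip1, and for genes listed at 0 in one group with a mean of at least 2 FPKM in another. Alternatives covered the pseudocount, filter, scaling, samples fitted, variance model, replicate number, threshold, each library left out and, chosen after seeing the data, repeated values counted as 2 libraries. Python 3.11.15 and matplotlib 3.10.9 drew the figures.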

Additional observations from a re-analysis of the deposited data

Results flagged for a closer look

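Fancm and Fancf drew attention because the effect of Ago2 kd differed between the 2-cell and the 4-cell stage in the interaction term of the limma fit. For Fancm the 4-cell effect exceeded the 2-cell effect by 5.34 ± 0.37 (SE) units of log2(FPKM + 1), with an adjusted p of 0.0021, and over the alternatives the adjusted p lay between 0.000537 and 0.0135. It was listed at 0 in 8 libraries and was above 0 in 2 of 2 4-cell Ago2 kd libraries, so the size of the difference depends on the pseudocount and is not a fold. It passed the filter through those 2 libraries alone and the other groups have no spread, so the p restates that it was high there. For Fancf the difference was -2.04 ± 0.30 with an adjusted p of 0.0204, and 2 of 2 4-cell Ago2 kd libraries were below both controls. Over the alternatives its adjusted p lay between 0.00448 and 0.113, and it missed the threshold with a pseudocount of 0.1 (0.113), without a filter (0.0894), with quantile normalization (0.0908), with the replicate block (0.0553), without either 2-cell control library, with 0.0618 and 0.0641, and without 2-cell Ago2 kd replicate 1, with 0.0573. Without 4-cell Ago2 kd replicate 2, Rad51d was called beside Fancf, which made 2 lower genes.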

How the results depend on the processing

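Of 899 values of single repair genes over the alternatives, 756 kept their direction and side of the threshold, 111 lost a call, 32 gained one and 0 reversed. Of the 27 calls, 9 were kept under every alternative run. The number of repair genes higher from oocyte to 2-cell control was 0 and became 1 with a pseudocount of 0.1, with 1 FPKM in both libraries of a group, with median scaling and with the replicate block. The number lower from 2-cell to 4-cell control was 2 and became 1 with a pseudocount of 0.1, without a filter on low values, with the replicate block and with only the groups compared. From oocyte to 4-cell control, 2 higher became 1 without a filter, with quantile normalization and with only the groups compared, and 7 lower became 4 without a filter and with only the groups compared. In 4-cell Ago2 kd, 1 higher became 0 with only the groups compared, and 2 lower became 4 with 1 FPKM in both libraries of a group, 1 with median scaling, quantile normalization or the replicate block, and 0 with only the groups compared. For the difference of the Ago2 kd effect between stages, 1 lower became 0 without a filter, with quantile normalization and with the replicate block, and 2 with 1 FPKM in both libraries of a group and without a trend in the variance. The cause of these shifts was not tested. The alternative that required a difference over 1 log2 unit re-used the fit reported above. Each of the 27 calls already exceeded that limit, so this alternative could remove none.

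Leaving out 1 library at a time gave 0 to 1 higher and 3 to 7 lower genes from oocyte to 2-cell control, 2 to 6 higher and 0 to 2 lower from 2-cell to 4-cell control, 1 to 4 higher and 4 to 8 lower from oocyte to 4-cell control, 1 to 3 lower in 4-cell Ago2 kd and 0 to 2 lower for the difference between stages. The group that loses a library is then assumed to vary like the others. The replicate numbers share only a label: the deviations of libraries with the same number had correlations between -0.092 and 0.092 across genes, so the block result is a value only. Counting the repeated 2-cell Ago2 kd values as 2 libraries, an alternative chosen after seeing the data, moved no count of repair genes by more than 1.5 times. Sequencing depth is unknown, and with 2 libraries a group a difference that was not called may still exist.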
